A study of Homo sapiens with 20 samples.

Results

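The urokinase plasminogen activation system was followed through the N6-methyladenosine (m6A) peak lists of 2 human bladder cancer cell lines. The members were 5 genes, namely the activators PLAU and PLAT, the receptor PLAUR, and the inhibitors SERPINE2 and SERPINB2. A peak was counted for a gene when its summit, the position of highest enrichment, lay in an exon of any of the gene's transcripts. By this rule 4 of the 5 genes carried peaks, with 55 peaks in 7 regions, out of 231465 peaks in 43676 regions and 13976 genes in the whole series. SERPINE2 had no exonic summit in any library.

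T24 is a cisplatin-sensitive bladder cancer line, and T24R2 is its cisplatin-resistant derivative, obtained by repeated exposure to the drug. Both are labelled wild type, were grown in RPMI medium with fetal bovine serum, penicillin and streptomycin and were collected on day 3, at confluence. In methylated RNA immunoprecipitation sequencing (MeRIP-seq), fragmented RNA was pulled down with an antibody against m6A and compared with input RNA. Each line had 5 pull-down and 5 input libraries, and the peak lists of the 10 pull-downs were analysed. Per the study's methods T24R2 was kept in medium with cisplatin, and the resistant state is represented by a single derived line, so resistance, the drug in the medium and any other difference between these lines cannot be told apart. The labels do not say whether the replicates came from separate cultures, so the p-values measure the spread between these libraries, which may be technical. In bulk RNA, a change in the number of cells that carry a modified transcript and a change within each cell cannot be told apart.

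Urokinase (PLAU) and tissue plasminogen activator (PLAT) are serine proteases that cut plasminogen to plasmin, which degrades fibrin and other matrix proteins. The receptor PLAUR holds urokinase at the cell surface, and serpins such as SERPINE2 and SERPINB2 trap and inactivate the activators. The m6A mark is written mainly within the DRACH motif (A, G or T, then A or G, then A and C, then A, C or T) and is typically densest near stop codons and in long last exons.

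The sequences nearest to the summits are shown to place the peaks on their transcripts. All are from the hg38 reference, in the direction of the gene, and are shown 5′ to 3′. In the first line the capitals mark the first bases of PLAU exon 2, at chr10:73911515-73911544 on the plus strand, because the summits of all 10 libraries fell within 12 bp of this edge. In the other lines the capitals mark a DRACH motif. The PLAU 3′UTR sites lie at chr10:73916794-73916818 and chr10:73916817-73916841 on the plus strand, the PLAUR site at chr19:43648916-43648940 on the minus strand and the SERPINB2 site at chr18:63903088-63903112 on the plus strand.
PLAU exon 2 edge: tcctttgcagAGCCGCCGTCTAGCGCCCCG
PLAU 3′UTR nearest DRACH: aacatgttacTGACCagcaacttgt
PLAU 3′UTR nearest GGAC: gtctttttctGGACTgaagcctgca
PLAUR last exon nearest DRACH: accctgctaaTGACTgccagactgt
SERPINB2 last exon nearest DRACH: cggagaggaaTGACCtgtttctttc

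Each of 5 member regions had a peak in every one of the 10 libraries, and the other 2 had one in 2 libraries each. Across the series 21.9% of regions were called in all 10 libraries. Of the 5, 4 lay in a last exon within 400 nt of the stop codon, 1 in each gene with exonic peaks, and the other lay at PLAU exon 2. Among 7111 regions called in all 10 libraries within a single protein-coding gene, 60.1% lay in the last exon and 40.6% within 400 nt of the stop codon. Of the 4834 genes with such regions, 78.5% had at least 1 in the last exon. Libraries held 5, 6, 7, 6 and 6 exonic member peaks in T24 replicates 1 to 5, and 5 in every T24R2 library.

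**Figure D1:**
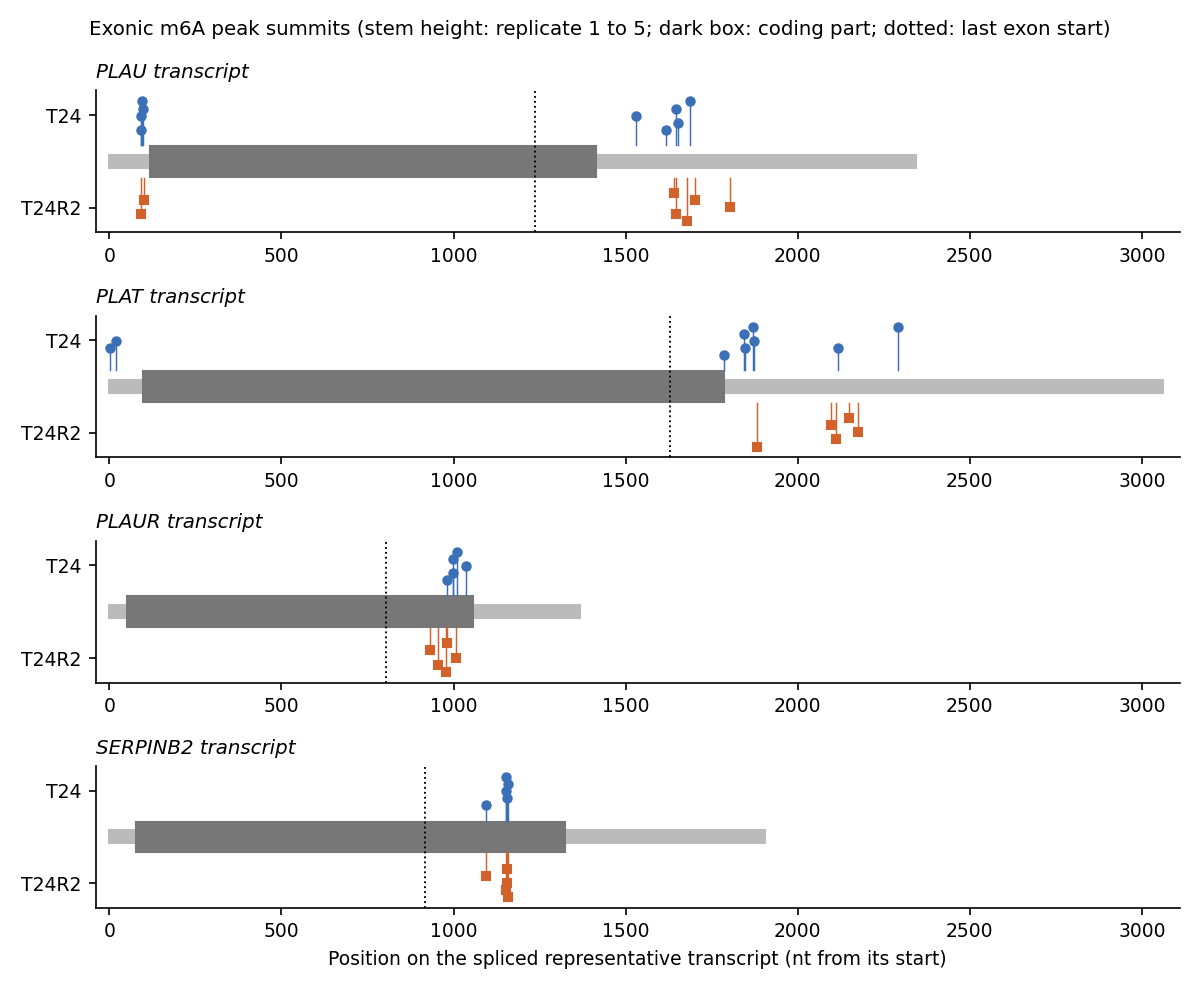
Exonic peak summits on the spliced representative transcripts of PLAU, PLAT, PLAUR and SERPINB2, with the position in nt from the transcript start on the horizontal axis. T24 summits are above the transcript and T24R2 summits below, stem height marks the replicate, the dark box is the coding part and the dotted line is the start of the last exon. Every transcript has a cluster of summits in its last exon in both lines, and PLAT has summits at its start in 2 T24 libraries.

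Peak strength was the fold enrichment of pull-down over input, as deposited, expressed as its percentile within the library's own list, so that a value of 10 means that 10% of that library's peaks were no stronger. Where a library had several peaks in a region, the strongest was used. The mean percentile was higher in T24R2 than in T24 in all 5 member regions called in all 10 libraries, and the median difference was 21.6 percentile points. Over all 9577 such regions 64.4% had a difference above 0 and the median was 4.84. In the two-sided exact permutation test over libraries, 0 of the 5 passed an adjusted p of 0.05, and 0.0% of all regions did. At an unadjusted p under 0.05, 3 of the 5 were higher in T24R2 and 0 lower, against 10.9% and 3.04% of all regions. limma on log2 fold enrichment also gave 0 of 5 after adjustment, against 0.794% of all regions after adjustment. Before adjustment limma gave 3 of 5, but the share over all regions is not given, so that count is not weighed. With 5 libraries against 5 the smallest possible p was 0.00794. At least 1521 regions would have to reach it before any could pass the adjustment. At an unadjusted p under 0.05 there were only 1041 regions higher and 291 lower in T24R2. The adjusted permutation test could therefore call no region.

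**Figure D2:**
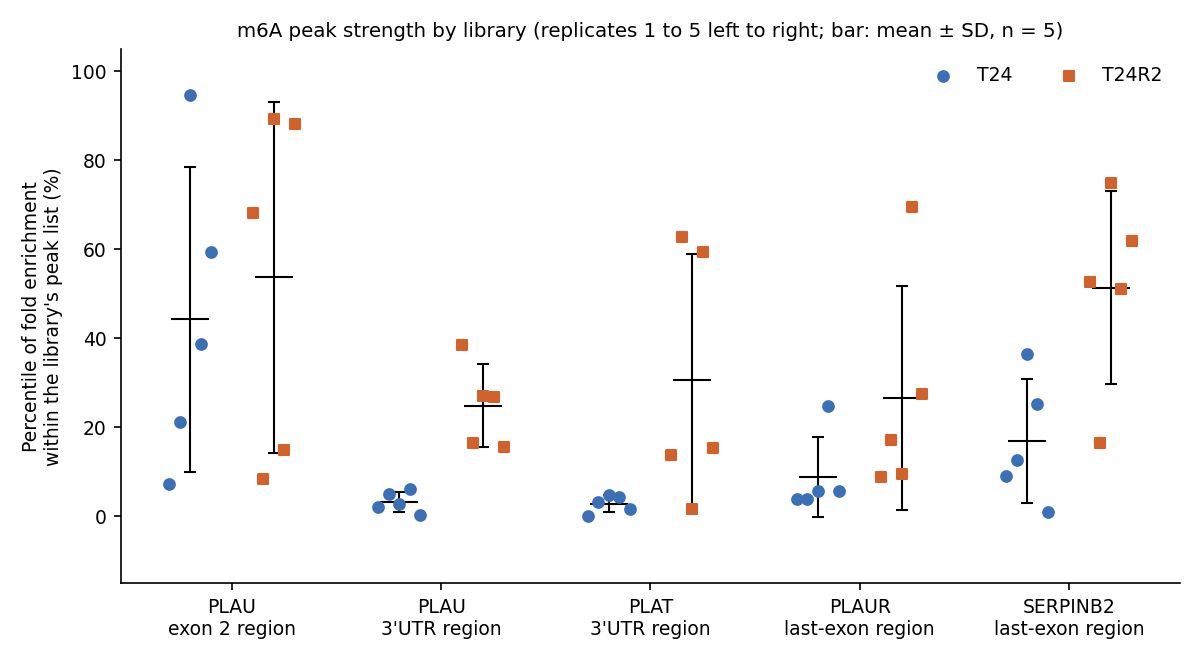
Percentile of fold enrichment within the library's peak list, on the vertical axis in percent, for the 5 member regions called in all 10 libraries. Points are libraries, T24 as circles and T24R2 as squares, and bars are the mean ± SD (n = 5). In the PLAU 3′UTR region the T24 libraries sit between 0.433 and 6.17 and the T24R2 libraries between 15.7 and 38.4, while in the PLAU exon 2 region the lines overlap.

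PLAU encodes urokinase. Its gene lies at chr10:73909177-73917496 on the plus strand, and the representative transcript, ENST00000372764.4, has 11 exons and 2343 nt. It was among the transcripts that the study selected on these samples, so its direction here is not independent evidence. The study took its candidates from transcripts that differed between the lines in both expression and methylation. Its primer list has PLAU for expression by quantitative PCR but not for PCR after the m6A pull-down. The gene's 3′UTR region (chromosome 10, 73916323 to 73917100) covered part of exon 11, with a median summit 236 nt past the stop codon. Its percentiles of fold enrichment were 2.13, 4.97, 2.88, 6.17 and 0.433 in T24 replicates 1 to 5. In T24R2 they were 38.4, 16.5, 27.0, 26.8 and 15.7. Every T24R2 library was above every T24 library, which was so for 3.63% of regions called in all 10 libraries. The means were 3.31 ± 2.28 in T24 against 24.9 ± 9.31 in T24R2 (± SD, n = 5 per line), a difference of 21.6 points (two-sided exact permutation p = 0.00794, adjusted p = 0.176). Of the regions called in all 10 libraries, 13.7% had a difference at least as large in this direction. On the fold scale the region had a mean enrichment of 2.92 ± 0.50 in T24 against 5.04 ± 0.52 in T24R2 (± SD, n = 5 per line). The centred log2 fold enrichment was higher in T24R2 by 0.70 ± 0.24 (SE, limma adjusted p = 0.156). By −log10 q in place of fold enrichment the difference was 42.6 points, and among the regions called in all 10 libraries alone it was 9.82 points (exact permutation adjusted p = 0.126 and 0.203).

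The PLAU 3′UTR peak was also broader in T24R2. It covered 336, 329, 435, 522 and 304 bases in T24 replicates 1 to 5, and 685, 701, 651, 684 and 715 bases in T24R2. Every T24R2 library covered more bases than every T24 library, as was so for 10.8% of regions called in all 10 libraries. The mean was 385 ± 91.3 bases in T24 against 687 ± 23.9 in T24R2 (± SD, n = 5 per line), and the difference was 0.86 on the log2 scale (two-sided exact permutation p = 0.00794, adjusted p = 0.0692). Over the 10 single-library omissions the adjusted p ranged from 0.0487, without T24 replicate 1, to 0.151. Covered bases were compared after the data had been seen. The T24R2 lists were longer, with 22671 to 33120 peaks against 17203 to 22901 in T24, and 30.3% of all 9577 regions had more covered bases in T24R2 at an unadjusted p under 0.05. With 17203 peaks kept in each library, the PLAU 3′UTR region was no longer called in all 10 libraries, so that setting gave no value for it.

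The PLAU exon 2 region (chromosome 10, 73910195 to 73911933) was called in all 10 libraries, and in each of them a summit fell between 10 bp before and 12 bp after the first base of exon 2, whose edge is printed above. The start codon lies 31 nt after the first base of that exon. The percentiles of the peaks at this edge were 4.85, 21.2, 94.8, 10.6 and 40.1 in T24, and 22.7, 8.34, 89.4, 14.9 and 88.1 in T24R2. High and low libraries occurred in both lines, and the difference of 10.4 points was within their spread (two-sided exact permutation p = 0.762).

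What separated the lines here was the length called. The region's peaks covered 491, 80, 159, 342 and 185 bases in T24, and 1510, 1671, 1331, 1723 and 1707 bases in T24R2. In 3 of the T24R2 libraries a single peak ran over nearly the whole region, while T24 libraries had 1 or 2 short peaks. The mean was 251 ± 164 bases in T24 against 1588 ± 167 in T24R2 (± SD, n = 5 per line), 7.58-fold higher on the geometric mean, or 2.92 on the log2 scale (two-sided exact permutation p = 0.00794, adjusted p = 0.0692). A difference at least as large was found in 0.0313% of regions called in all 10 libraries. Without T24 replicate 1 the adjusted p was 0.0487, and over the 10 single-library omissions it ranged from 0.0487 to 0.151 and the log2 difference from 2.58 to 3.23. With 17203 peaks kept in each library the log2 difference was 3.36 (exact permutation adjusted p = 0.0715).

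Most of this length was not PLAU exon. Of the 1739 bases of the region 175 lie in exons 1 and 2 of the representative transcript, and all 1739 lie within exons of C10orf55, a gene on the opposite strand. In T24 62.5% to 89.2% of the covered bases lay outside those PLAU exons, and in T24R2 89.5% to 94.2%. The peak lists carry no strand, so signal from PLAU, from its introns or alternative first exons, and from C10orf55 cannot be told apart here. In the 3′UTR region 123 of 778 bases lie in C10orf55 exons.

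**Figure D3:**
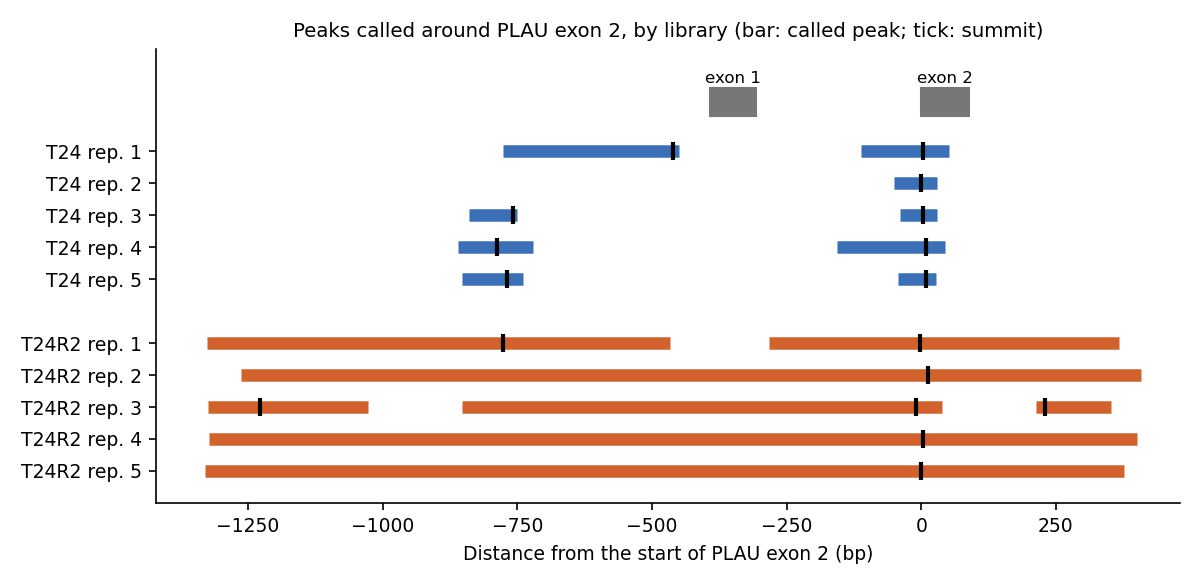
Called peaks around PLAU exon 2 by library, with the distance from the first base of exon 2 in bp on the horizontal axis. Bars are peaks, ticks are their summits and grey boxes are exons 1 and 2 of the representative transcript. T24 libraries show peaks that cover 80 to 491 bases in all and T24R2 libraries peaks that cover 1331 to 1723 bases, with a summit at the exon 2 edge in every library.

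PLAT encodes tissue plasminogen activator, on the minus strand at chr8:42174718-42207709 (ENST00000220809.9, 14 exons, 3062 nt). Its 3′UTR region (chromosome 8, 42175376 to 42176191) lay mostly in exon 14. The percentiles were 0.148, 3.30, 4.88, 4.37 and 1.60 in T24, and 13.8, 62.8, 1.77, 59.4 and 15.3 in T24R2. T24R2 replicate 3 lay within the T24 range and the other T24R2 libraries above it. The means were 2.86 ± 1.97 and 30.6 ± 28.3 (SD, n = 5 each), a difference of 27.8 points (two-sided exact permutation p = 0.0317, adjusted p = 0.290), and the unadjusted p stayed under 0.05 in 5 of 10 omissions of a single library. Of the regions called in all 10 libraries, 7.54% had a difference at least as large in this direction. With 17203 peaks kept in each library the difference was 18.6 points (exact permutation p = 0.0794).

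The summit of the strongest PLAT peak lay further into the 3′UTR in T24R2. It was 0, 61, 86, 57 and 82 nt past the stop codon in T24 replicates 1 to 5. In T24R2 it was 363, 310, 388, 324 and 94 nt past it. The lines did not overlap, although T24R2 replicate 5 lay 8 nt from the nearest T24 library. The mean was 57.2 ± 34.4 nt in T24 against 296 ± 117 nt in T24R2 (± SD, n = 5 per line), a difference of 239 nt (two-sided exact permutation p = 0.00794, adjusted p = 0.957). Such separation without overlap was found in 0.783% of regions called in all 10 libraries, and 3.79% had an unadjusted p under 0.05. A shift at least as large, in either direction, was found in 5.89% of them. Summit positions were compared after the data had been seen. T24 replicates 2 and 5 had a second, weaker peak further downstream, with summits 331 and 504 nt past the stop codon. With the mean of all summits in each library the shift was 169 nt (exact permutation p = 0.0556). The median summit had 3 DRACH motifs within 50 nt on the transcribed strand in T24 and 3 in T24R2, of which 0 and 1 held GGAC.

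A second PLAT region lay in the 5′UTR part of exon 1 (chromosome 8, 42207542 to 42207629). It was called in T24 replicates 2 and 3, at percentiles 26.1 and 2.49, and in no T24R2 library. The difference in presence, 2 against 0 libraries, did not pass Fisher's exact test (two-sided p = 0.444). By presence 0 of the 7 member regions passed that test before or after adjustment, against 9.21% of all regions before and 0.0% after it. At least 6933 regions would have to reach the smallest possible Fisher's exact p, 0.00794, before any could pass the adjustment. Only the 1320 regions called in all 5 T24R2 and no T24 library and the 457 of the reverse pattern reached it. The adjusted presence test could therefore call no region. limma was not applied to presence. Counting only peaks with a fold enrichment of at least 4, 2 member regions had an unadjusted p under 0.05, namely the 3′UTR regions of PLAU and PLAT, with Fisher's exact p = 0.00794 and 0.0476 and adjusted p = 0.228 and 0.591. Of the 41010 regions with such a peak in any library 8.58% had an unadjusted p under 0.05. When a peak had to cover at least 50% of the region, 1 member region, PLAU exon 2, had an unadjusted p under 0.05 (Fisher's exact p = 0.0476, adjusted p = 0.627), against 7.6% of the 43633 regions with such a peak.

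**Figure D4:**
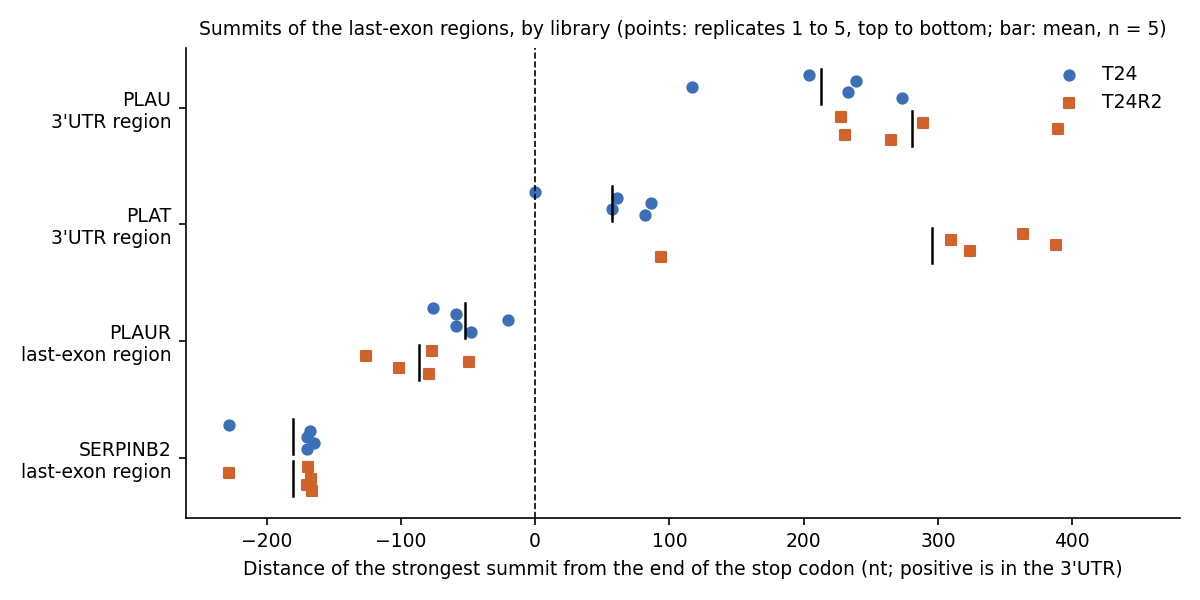
Distance of the strongest summit from the end of the stop codon, in nt, on the horizontal axis, for the last-exon region of each gene. Points are libraries, T24 as circles and T24R2 as squares, and bars are means (n = 5). The PLAT summits lie at 0 to 86 nt in T24 and 94 to 388 nt in T24R2, and the SERPINB2 summits sit at the same place in both lines.

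PLAUR encodes the urokinase receptor, a membrane-anchored protein, on the minus strand at chr19:43646095-43670547 (ENST00000340093.8, 7 exons, 1368 nt). Its region called in all 10 libraries lay at 43648722 to 43649203 on chromosome 19. The region ran from just upstream of exon 7, past the stop codon, into the 3′UTR. In every library its summit lay in coding sequence of exon 7, and the median summit lay 68 nt before the end of the stop codon. The percentiles were 3.97, 3.87, 5.83, 24.8 and 5.72 in T24, and 8.91, 17.3, 9.56, 69.6 and 27.6 in T24R2. Replicate 4 was the highest in each line, and the lines overlapped. The means were 8.85 ± 8.99 and 26.6 ± 25.2 (SD, n = 5 each), a difference of 17.7 points (two-sided exact permutation p = 0.135, adjusted p = 0.522), which was 6.98 points without T24R2 replicate 4. Of the regions called in all 10 libraries, 19.2% had a difference at least as large as 17.7 points in this direction. The region covered 253 ± 34.4 bases in T24 against 298 ± 88.9 in T24R2 (± SD, n = 5 per line). Summits lay 20 to 76 nt before the end of the stop codon in T24 and 49 to 126 nt before it in T24R2 (two-sided exact permutation p = 0.0635).

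A second PLAUR region (chromosome 19, 43646049 to 43646251) lay in the last exon of an alternative transcript. It was called in T24 replicate 3 and T24R2 replicate 5, at percentiles 19.2 and 75.2.

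SERPINE2, or protease nexin, inhibits urokinase, tissue plasminogen activator and thrombin. It lies at chr2:223975045-224039318 on the minus strand and had 0 exonic summits and 11 intronic peaks. An intronic region (chromosome 2, 224000511 to 224001118) was called in all 10 libraries. Its percentiles were 72.7, 58.2, 63.7, 72.1 and 79.4 in T24, and 56.9, 82.0, 80.0, 75.6 and 78.9 in T24R2. The lines overlapped, with means of 69.2 ± 8.30 and 74.7 ± 10.2 (SD, n = 5 each; two-sided exact permutation p = 0.341). A missing exonic peak gives no level of the transcript, since the lists hold no read counts.

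SERPINB2 encodes plasminogen activator inhibitor type 2, which acts on urokinase and tissue plasminogen activator and is largely kept inside the cell. Its gene lies at chr18:63871692-63903888 on the plus strand (ENST00000299502.9, 8 exons, 1906 nt), and an annotated readthrough gene shares the last exon. The only exonic region (chromosome 18, 63902975 to 63903257) lay in coding sequence of exon 8. The percentiles were 9.13, 12.7, 36.4, 25.3 and 1.05 in T24, and 52.6, 16.5, 74.9, 51.0 and 61.9 in T24R2. Apart from replicate 2, every T24R2 library was above every T24 library. The means were 16.9 ± 14.0 and 51.4 ± 21.7 (SD, n = 5 each), a difference of 34.5 points (two-sided exact permutation p = 0.0238, adjusted p = 0.263). A difference at least as large in this direction was found in 3.35% of regions called in all 10 libraries. Ranked by −log10 q the difference was 12.7 points (exact permutation p = 0.468).

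The SERPINB2 summit was the most closely placed among the last-exon regions of the members. In 8 of the 10 libraries it fell within 63903135 to 63903140 on chromosome 18, a span of 5 nt. In T24 replicate 1 and T24R2 replicate 2 it lay 58 nt upstream, at 63903077 in both. The mean distance before the end of the stop codon was 180.2 nt in T24 and 180.0 nt in T24R2. The nearest DRACH motif, in the sequence printed above, has its A at 63903100, 36 nt upstream of the median summit, and it is the only one within 50 nt on the transcribed strand.

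Every member region held a DRACH motif near its median summit. Within 50 nt of the median summit the transcribed strand held 1 motif in the PLAU exon 2 region, 4 in the PLAU 3′UTR region, 2 in each of the regions of PLAT and of PLAUR, and 1 in the SERPINB2 region. Among 8093 regions called in all 10 libraries in exons of genes on a single strand, 92.8% held at least 1 on that strand and 70.4% on the opposite strand, with a median of 3 and 1. The nearest A of a motif lay 5 to 36 nt from the median summit in the 7 member regions, with a median of 20 nt, and within 10 nt in 1 of them. Over the 8093 regions the median was 10 nt and 48.0% lay within 10 nt. The motif of the PLAU exon 2 region lies in the intron before exon 2. The form with GGAC was present near the PLAU 3′UTR summit and the summits of the PLAT 3′UTR region and the second PLAUR region, against 46.9% of those 8093 regions. In the PLAU 3′UTR region its A lies 28 nt past the median summit and 264 nt past the stop codon.

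The members' regions at last exons were among the weaker peaks in T24. The mean T24 percentile was at or below that of PLAT in 0.70% of the 9577 regions, of PLAU in 0.898%, of PLAUR in 3.01% and of SERPINB2 in 6.27%. In T24R2 the corresponding shares were 9.25%, 6.11%, 7.05% and 25.6%. The median over all 9577 regions was 63.4 in T24 and 69.3 in T24R2.

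The number of exonic summits per library did not pass a test in any member. PLAU had 1 to 3 in T24 and 1 or 2 in T24R2, and PLAT had 1 to 3 in T24 and 1 in every T24R2 library. PLAUR had 1 or 2 in each line and SERPINB2 had 1 in every library. All 4 genes had a summit in every library, as did 45.5% of 13976 genes. In the exact permutation test 0 of the 4 passed before or after adjustment, against 13.9% and 0.0% of the 13976 genes (10.4% with more and 3.53% with fewer in T24R2 before adjustment), and limma was not applied to these numbers. At least 2219 genes would have to reach the smallest possible p before any could pass the adjustment. Only 1948 genes had an unadjusted p under 0.05, so the adjusted test of peak number could call no gene.

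Other genes of plasminogen activation were read from a list of 37 receptors, regulators and matrix proteases. Of these, 19 had an exonic summit and 6 had a region called in all 10 libraries, namely MET, the receptor for hepatocyte growth factor, with 2 such regions, and IGF2R, ITGB3, ITGA5, THBD and MMP14 with 1 each. Of these 7 regions 0 passed the exact permutation test after adjustment and 1 passed at an unadjusted p under 0.05, a coding region of MET at a mean percentile of 35.9 in T24 and 60.5 in T24R2 (exact permutation p = 0.0238, adjusted p = 0.263). The percentile was higher in T24R2 in 5 of the 7 and the median difference was 8.39 points, beside 64.4% and 4.84 points over all 9577 regions. By presence 2 of the list's 48 regions had an unadjusted Fisher p under 0.05, against 9.21% of all regions, both in serpin genes, 1 in SERPINA5 called in 4 T24 and 0 T24R2 libraries and 1 in SERPINB8 called in 0 and 4. Among 18 other serpins, 5 had an exonic summit, and SERPINH1, a collagen chaperone, had a region (chromosome 11, 75566319 to 75566917) called in all 5 T24R2 and no T24 library (Fisher's exact p = 0.00794, adjusted p = 0.195). Such regions made up 3.02% of all regions, and regions with the reverse pattern 1.05%, and no member region was of either kind.

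The genes whose strongest exonic peak followed a member most closely over the 10 libraries were sought among 6506 genes by Pearson's r of the percentile. They were HIF1A (r = 0.88) and GAK (0.88) for PLAU, SSU72 (0.93) and GNAI2 (0.93) for PLAT, TNIP1 (0.97) and DAP (0.93) for PLAUR, and FDX2 (0.93) and MED9 (0.91) for SERPINB2. A library without an exonic peak of a gene was given 0, as for GAK in T24 replicates 1 and 2. For PLAU the strongest exonic peak lay in the exon 2 region in some libraries and in the 3′UTR region in others. The points share libraries and list lengths, and the values are a description only.

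As a check of the labelled cell type, 4 of 14 urothelial and epithelial markers and 3 of 4 mesenchymal markers had exonic summits. KRT7 had 1 region called in all 10 libraries, CDH2 had 1 and ZEB1 had 3. GATA3 and VIM each had 1 region called in all 5 T24 and no T24R2 library. The other 10 urothelial and epithelial markers had no exonic summit, which gives no level of those transcripts.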

How the data were processed

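MeRIP-seq pull-down and input libraries of T24 and T24R2 were made by the authors from RNA fragments with a stranded total RNA kit. According to the study's methods, the authors mapped reads to hg38 with GENCODE annotation, removed duplicates and multiply mapped reads, and called peaks in each library. The submitters' processing notes name STAR 2.7.0, SAMtools 1.10 and MACS2 3.0.0a6. Each deposited peak row gives coordinates, a score, the fold enrichment over input (a ratio), −log10 p and −log10 q. The merged list deposited by the authors was identical to a merge of the 10 lists. The lists hold no read counts, so depth is unknown, no interval that needs it is given and the study's count tests were not run.

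Summits were placed on GENCODE 44 exons. Positions are on the MANE Select or canonical transcript. Groups came from sample titles. A library had a region when a peak overlapped it by at least 1 bp. Presence was tested by Fisher's exact test over 43676 regions. Percentiles, covered bases and summit positions were tested over 9577 regions and peaks per gene over 13976 genes, by exact permutation over 252 assignments. All were adjusted by Benjamini-Hochberg over every region or gene tested. limma 3.58.1 (R 4.3.3), scipy 1.17.1 and pysam 0.24.0 were used, and scripts were tested on simulated data. Alternatives were other peak filters and ranks, limma, a replicate block and single-library omissions. Named genes were the members, genes of the plasminogen and serpin lists with a region in all 5 libraries of 1 line and none of the other, those with most regions in all 10 libraries (5 tied genes are all named), and the 2 genes most like each member. The members and gene lists were chosen with earlier results of these data known. Not every gene of the system is reported here.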

Additional observations from a re-analysis of the deposited data

Results flagged for a closer look

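In 4 of 25 groups of 5 libraries, a single library stood apart from the others, by a gap of more than 0.71 of the group's range. Chance flags about 5% of such groups of continuous values. That share does not hold for small counts, where 1 differing library is enough for a flag. In the PLAUR last-exon region, T24 replicate 4 had a percentile of fold enrichment of 24.84 while the next highest T24 library had 5.83. The other 3 groups were numbers of exonic summits, where all libraries but 1 shared a value. PLAU had 1 in T24R2 replicate 5 and 2 in the other T24R2 libraries, and in that library the exon 2 summit lay 1 bp before the exon and no other summit of the region was in an exon. PLAUR had 2 in T24 replicate 3 and 2 in T24R2 replicate 5, and 1 in the other libraries of each line, and those 2 libraries had the peak in the alternative last exon.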

How the results depend on the processing

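No member region or gene passed an adjusted p of 0.05 for presence, strength or peak number under any alternative that was run, and the strength differences of all 5 regions kept their direction. In the main setting the adjusted tests of presence, strength and peak number could call no region or gene, so no conclusion is drawn from them. Presence at an unadjusted p under 0.05 went from 0 to 2 member regions with a fold enrichment of at least 4, and to 1, the PLAU exon 2 region, when a peak had to cover 50% of the region. The number of PLAT exonic summits had an unadjusted exact permutation p of 0.0476 without T24 replicate 1 or 4 (adjusted p = 0.301 and 0.302). Ranked among the regions called in all 10 libraries alone, the strength differences were smaller, 15.1 points for PLAT, 8.54 for PLAUR and 19.2 for SERPINB2, and the unadjusted call of SERPINB2 was lost (exact permutation p = 0.0714). Ranked by −log10 q, the unadjusted call of PLAT was lost as well (23.0 points, exact permutation p = 0.159). With limma 0.794% of all regions passed the adjustment, against 0.0% by permutation. Leaving out a library, the difference of the strongest peak in the PLAU exon 2 region ranged from 0.284 to 22.1 points (lowest without T24 replicate 1). The strength difference ranged from 18.2 to 23.9 points for the PLAU 3′UTR region and from 19.7 to 35.0 for PLAT. It ranged from 6.98 to 22.2 for PLAUR and from 28.6 to 43.2 for SERPINB2. Direction reversed for the number of PLAU peaks without T24 replicate 4 (omissions gave -0.45 to 0.05 per library), for the PLAU exon 2 summit taken from the peak of highest −log10 q (-4.2 bp), and for the SERPINB2 summit, which moved between -11.75 and 12.2 bp. The cause was not tested. Covered bases of the PLAU regions passed the adjustment without T24 replicate 1, at log2 differences of 3.23 and 0.82 (adjusted p = 0.0487 each). Both had an exact permutation p of 0.00794 there, and every region with that p has the same adjusted p. The share of all regions that passed in this setting is not given, so the pass is not read as particular to PLAU. When each list was cut to 17203 peaks, the PLAU 3′UTR, PLAUR and SERPINB2 regions were no longer called in all 10 libraries and had no strength value.

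Same-numbered libraries of the lines did not deviate together, with correlations of 0.0037, -0.0304, 0.0474, -0.0105 and 0.111, so the replicate numbers were not taken to pair them. With the replicate as a block 0 regions passed for presence or strength, the covered bases of both PLAU regions had an adjusted p of 0.232, and the smallest p that 5 pairs allow is 0.0625.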

Other observations

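Peaks in introns of the members were outside the rule. In PLAUR an intronic region (chromosome 19, 43661723 to 43661891) was called in 0 T24 and 4 T24R2 libraries, at percentiles from 32.6 to 89.2 (two-sided Fisher's exact p = 0.0476, adjusted p = 0.517). Over all regions 9.21% had an unadjusted Fisher p under 0.05. A neighbouring PLAUR intronic region (43659562 to 43659861) was called in 1 T24 and 3 T24R2 libraries. PLAUR introns held 1 peak over the T24 libraries and 7 over the T24R2 libraries. PLAU introns held 4 and 4, all in the exon 2 region, and PLAT introns 1 and 1. SERPINE2 introns held 5 and 6, and SERPINB2 introns 0 and 0. The T24R2 lists were longer, with 22671 to 33120 peaks against 17203 to 22901 in T24. No share over all introns is given beside these counts.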
